A study of Caenorhabditis elegans with 2 samples.

Results

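Promoter-distal intergenic binding of CEBP-2 was examined in 278 peak regions of Caenorhabditis elegans. They were chosen by position alone from the list of peaks that the authors called on both replicates together, which held 1419 peaks in 1374 regions after peaks sharing at least 1 bp had been merged. Of these, 236 regions overlapped a tRNA, snoRNA or snRNA gene and were set aside, which left 1138. A region was kept when its summit lay outside every protein-coding gene and outside the window from 1000 bp upstream to 200 bp downstream of every protein-coding 5' end. The 278 regions, called distal regions or members below, made up 24.4% (95% Wilson interval 22 to 27%) of the 1138. The other 860 comprised 347 regions at promoters and 513 within genes. The rule used no sequence, and peak height only to take the summit of the highest peak where a region had been merged from several, as in 5 of the 278.

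Chromatin immunoprecipitation and sequencing (ChIP-seq), which maps where a protein sits on DNA, was done on whole young adult worms 64 h old that had been synchronised by bleaching and starvation at the first larval stage. The strain, OP331, carries the transgene wgIs331, in which the cebp-2 gene (C48E7.11 in the strain's label) is fused to TY1, EGFP and 3xFLAG tags, with unc-119(+) as the rescue marker in an unc-119(ed3) background, and chromatin was pulled down through the fused green fluorescent protein with an anti-GFP antibody. There is 1 group of 2 biological replicates, all carrying the transgene and both sets of unc-119 alleles. The labels name a control experiment, which was not analysed here, so the regions are set against the genome, against flanking sequence and against other regions, never against a control. Because whole animals were used, binding in a few cells and weak binding in many cannot be told apart, and the transgene adds copies of cebp-2 to those of the genome. Called peaks without read counts were analysed, so depth is unknown and intervals cover the counting of regions only.

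CEBP-2 belongs to the C/EBP branch of the basic leucine zipper (bZIP) proteins. Proteins of this kind bind DNA as dimers at palindromes built around TTGCGCAA and close relatives, and CEBP-2 is known in this worm as a partner of the bZIP protein ZIP-2 in the surveillance of blocked translation. The genome is compact, so little of it lies far from a gene: the sequence in which a distal summit could fall amounted to 25074852 bases, 25% of the genome. This sequence is called allowed sequence below, and shares of the distal regions are set against shares of its bases. The tests take each region as independent, and they say nothing of the spread between animals. All positions are on the build ce11, counted from 1.

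Many of the highest distal regions fell into a few recognisable kinds of sequence at the summit, and they are shown first because later results refer to them. The third set, with ACCACTCG, is not among the highest, as its first region ranks 44 by signal. Each sequence runs 50 bp to either side of the summit, 5' to 3' on the plus strand, from the RefSeq assembly of the same build. The first set holds distal regions on X with TCGCGCAG, an element that overlaps the core GCGCAGGG of the MEX motif. MEX marks the X recruitment sites at which the dosage compensation complex, which lowers expression of X in hermaphrodites, first loads onto X. Capitals mark TCGCGCAG on either strand.
X region at 4209273, chrX:4209223-4209323: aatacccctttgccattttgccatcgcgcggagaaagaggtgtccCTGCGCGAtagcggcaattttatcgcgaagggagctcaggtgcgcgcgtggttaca
X region at 11094187, chrX:11094137-11094237: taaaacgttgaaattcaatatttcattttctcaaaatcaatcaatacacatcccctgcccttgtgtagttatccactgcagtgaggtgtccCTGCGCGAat
X region at 16056626, chrX:16056576-16056676: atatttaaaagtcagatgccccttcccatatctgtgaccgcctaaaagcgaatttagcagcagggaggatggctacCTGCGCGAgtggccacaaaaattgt
X region at 806698, chrX:806648-806748: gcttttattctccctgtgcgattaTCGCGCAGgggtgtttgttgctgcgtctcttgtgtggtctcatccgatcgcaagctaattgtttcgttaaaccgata
X region at 16682082, chrX:16682032-16682132: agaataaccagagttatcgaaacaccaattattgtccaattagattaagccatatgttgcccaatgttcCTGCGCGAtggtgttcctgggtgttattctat
X region at 17544544, chrX:17544494-17544594: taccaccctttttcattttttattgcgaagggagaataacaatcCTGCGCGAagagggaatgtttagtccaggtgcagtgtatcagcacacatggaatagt

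The second set holds repeated heat shock elements, inverted units of TTCNNGAA that the heat shock factor HSF-1 binds. Capitals mark each TTCNNGAA.
IV region at 15059347, chrIV:15059297-15059397: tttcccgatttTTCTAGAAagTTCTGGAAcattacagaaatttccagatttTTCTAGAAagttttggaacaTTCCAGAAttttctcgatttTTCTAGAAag
IV region at 15896082, chrIV:15896032-15896132: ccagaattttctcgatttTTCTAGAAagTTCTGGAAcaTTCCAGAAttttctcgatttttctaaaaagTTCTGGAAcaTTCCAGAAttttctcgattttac
IV region at 16458554, chrIV:16458504-16458604: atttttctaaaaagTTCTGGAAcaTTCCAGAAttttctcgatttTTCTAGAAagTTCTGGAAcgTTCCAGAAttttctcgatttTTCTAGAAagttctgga

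The third set carries ACCACTCG, the reverse complement of part of box A, an internal promoter element of tRNA genes. None of these regions overlapped an annotated tRNA gene, since those had been set aside. Capitals mark ACCACTCG on either strand.
X region at 13973301, chrX:13973251-13973351: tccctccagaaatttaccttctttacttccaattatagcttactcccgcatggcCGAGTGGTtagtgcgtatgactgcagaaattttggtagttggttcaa
V region at 1561386, chrV:1561336-1561436: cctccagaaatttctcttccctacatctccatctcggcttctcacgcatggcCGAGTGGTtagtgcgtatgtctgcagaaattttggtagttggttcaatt
IV region at 16731455, chrIV:16731405-16731505: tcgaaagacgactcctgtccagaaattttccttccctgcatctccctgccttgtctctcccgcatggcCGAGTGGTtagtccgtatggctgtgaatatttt

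A further pair of sets is held together by shared sequence rather than by one of the motifs searched. In each line, capitals mark the longest run shared, on either strand, with the first sequence of its set, or for the first sequence with the second. Runs of equal length tie between the first and second sequences of shared element B, whose capitals mark different runs.
Shared element A, IV region at 4725604, chrIV:4725554-4725654: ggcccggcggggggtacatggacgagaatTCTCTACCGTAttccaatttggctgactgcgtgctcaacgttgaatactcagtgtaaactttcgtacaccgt
Shared element A, II region at 4048071, chrII:4048021-4048121: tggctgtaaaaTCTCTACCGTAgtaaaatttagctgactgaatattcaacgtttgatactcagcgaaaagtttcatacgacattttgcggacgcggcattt
Shared element A, IV region at 9196419, chrIV:9196369-9196469: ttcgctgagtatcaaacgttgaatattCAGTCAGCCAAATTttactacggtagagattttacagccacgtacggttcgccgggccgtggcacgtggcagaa
Shared element A, IV region at 3313536, chrIV:3313486-3313586: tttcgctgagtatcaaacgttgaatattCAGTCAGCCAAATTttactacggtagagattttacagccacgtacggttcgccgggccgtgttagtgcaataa
Shared element B, V region at 14237684, chrV:14237634-14237734: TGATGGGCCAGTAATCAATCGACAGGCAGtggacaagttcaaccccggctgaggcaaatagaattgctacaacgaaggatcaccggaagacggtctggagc
Shared element B, V region at 15767596, chrV:15767546-15767646: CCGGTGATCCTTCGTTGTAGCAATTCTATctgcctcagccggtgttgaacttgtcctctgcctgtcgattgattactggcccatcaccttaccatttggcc
Shared element B, V region at 13239871, chrV:13239821-13239921: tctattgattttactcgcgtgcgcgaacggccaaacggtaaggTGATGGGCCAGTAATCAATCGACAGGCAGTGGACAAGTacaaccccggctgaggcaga

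The last sequence is that of the distal region with the highest signal, on II. Capitals mark GTTCGANNC, the letters of box B, the second internal promoter element of tRNA genes.
II region at 11960831, chrII:11960781-11960881: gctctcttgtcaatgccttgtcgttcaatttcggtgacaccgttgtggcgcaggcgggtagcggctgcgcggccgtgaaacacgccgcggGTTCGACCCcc

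Signal values are those of the authors' peak caller, have no stated unit, and serve here only to rank regions within a list. Over the 278 distal regions the signal ran from 19.2 through a median of 77.6 to 268, with quartiles at 70.4 and 93.1. The promoter regions had a median of 78.9 and the regions within genes a median of 73.1. Signals above the median of the main list, 77.6, were found in 139 distal regions (50%) and in 366 of the 860 others (42.6%), a difference that did not pass Fisher's exact test (adjusted p = 0.0879 over 4 comparisons). The distribution was steep at the top: the highest regions stood far above the upper quartile, as the plot of signal by rank shows.

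**Figure D1:**
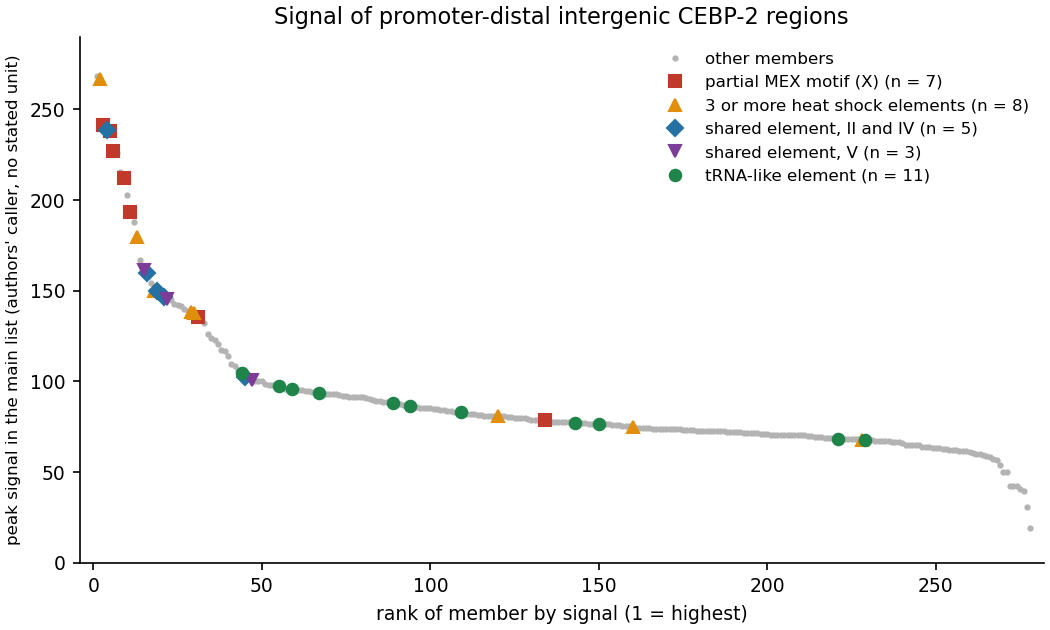
Signal of each distal region in the main list (vertical axis, authors' peak caller, no stated unit) by its rank (horizontal axis). Points are regions, coloured by the kind of sequence at the summit. The partial MEX motif is TCGCGCAG, and 6 of the 7 regions with it have signals from 135.5 to 241.4. The 11 regions with the tRNA-like element lie between 67.9 and 105.

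The region of highest signal, at 11960831 on II, had a signal of 268.1 and lay 88 bp downstream of the 3' end of W03C9.6. It was in the own thresholded list of both replicates, with signals of 105 in the ranked list of replicate 1 and 173 in that of replicate 2. The next, at 15059347 on IV, had a signal of 266.7 (156 and 102 in the replicates' ranked lists) and holds repeated heat shock elements. Of the 15 highest, 8 (53.3%) were on X, 4 on IV and 1 each on I, II and V, and none on III. On X, 5 of the 8 held part of the MEX motif. The other 3 were at 13700895 (signal 225.7), at 17442757 in masked repeat sequence (215.4) and at 9465835 (167.0), and their windows held neither TCGCGCAG nor GCGCAGGG. The remaining places on IV were taken by the region at 4725604, 291 bp downstream of K08F11.1 (238.6), the region at 16845549 (187.9) and the heat shock element array at 15896082 (179.8). The V region at 14237684 (161.5) lay in the non-coding gene K02E11.15. Of these 15, 13 were in the own thresholded lists of both replicates, and 14 were in each replicate's list.

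The highest region on I, at 6265128 with a signal of 203.0, was also the distal region nearest to cebp-2 itself, 12046 bp from its 5' end (the gene lies at 6253082 to 6253584 on I). Transgenes of this kind carry genomic sequence around the tagged gene, and whether the inserted clone spans this region was not tested. On III the highest region was at 2499478, with a signal of 141.9. At the rule's upstream bound, the nearest regions inside lay 1025, 1038 and 1039 bp upstream of dos-1, F47B7.5 and F28H1.1, with signals of 63.3, 61.5 and 77.6. The nearest outside lay 984, 977 and 956 bp upstream of fbxb-58, dhs-8 and F56H6.4, with signals of 200.5, 78.4 and 75.2.

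The replicates ranked the distal regions differently. A peak of both replicates' ranked lists, which hold 52508 and 70327 peaks, was found at 264 of the 278 regions, with 9 lacking one in replicate 1 and 6 in replicate 2. The median region stood at the 97.9th percentile of the first list and at the 98.7th of the second. The order of the signals was weakly shared: Spearman's rho of the signals over the 264 regions was 0.14, given as a description, since the points share libraries and were chosen from a list called on both. In the shorter own thresholded lists, 46 distal regions (16.5%) appeared in that of replicate 1 and 77 (27.7%) in that of replicate 2, 22.1% ± 7.89 (SD, n = 2). In both lists 25 (8.99%) appeared and 180 (64.7%) in neither. Among the 860 other regions 66 (7.67%) were in both (Fisher's exact test, adjusted p = 0.525). The authors' conservative list held 174 distal regions (62.6%) and 501 of the others (58.3%), and this difference did not pass the test either (exact test, adjusted p = 0.276). The others pool unlike classes, and the distal shares lay between theirs. In both own lists were 11.5% of promoter regions and 5.07% of regions within genes. The conservative list held 70.3% and 50.1% of these classes, which were not tested apart.

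The heat shock element arrays were not favoured by the same replicate as most distal regions. Across the 264 regions the signal was higher in replicate 1's ranked list in 43 and not in the rest, with medians of 32.7 and 49. The regions with at least 3 heat shock elements went the other way: 6 of the 7 with both values were higher in replicate 1, with medians of 82.6 and 43.2. The array at 14686662 on I had a signal of 94.5 in replicate 1 and 38.5 in replicate 2, and that at 16458554 on IV had 100 in replicate 1 and no peak in replicate 2's ranked list. Own thresholded lists held 6 of the 8 arrays in replicate 1 and 2 in replicate 2. All 7 regions with TCGCGCAG were higher in replicate 2, with medians of 83.1 and 145, as were all 3 with shared element B. That is the direction of most of the 264 regions, so it does not set these kinds apart. The region with GCGCAGGG alone had 34.2 in replicate 1 and 33.6 in replicate 2. The scales of the ranked lists are not stated to be comparable, so these are orders within and between lists, and with 1 library a replicate they were not tested.

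**Figure D2:**
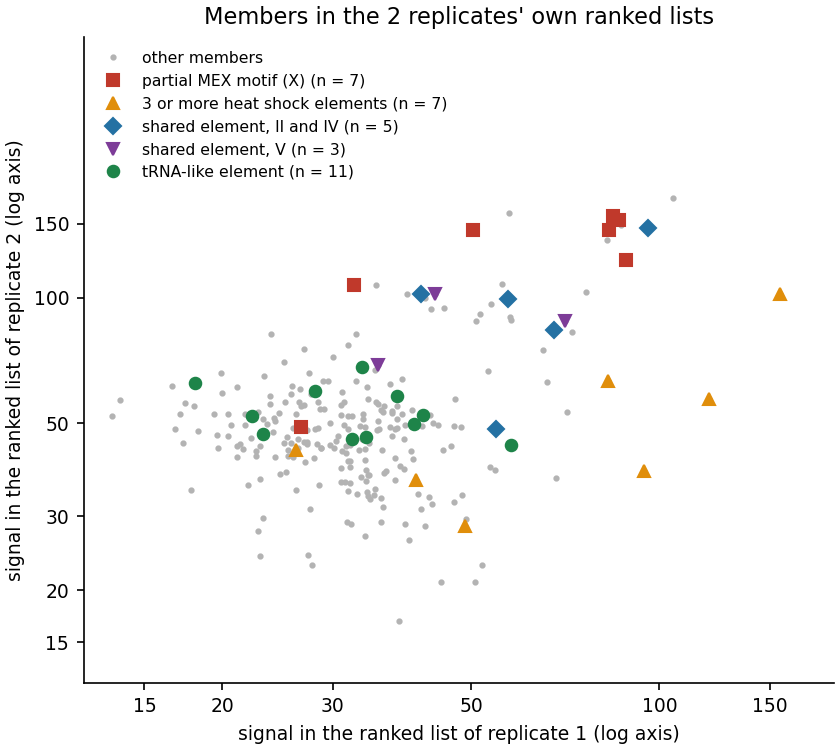
Signal of the 264 distal regions found in the ranked list of each replicate, in replicate 1 (horizontal, log axis) and replicate 2 (vertical, log axis), in the authors' units. Points are regions. Arrays of heat shock elements sit low and to the right of the other high regions, and 6 of 7 are higher in replicate 1. All 7 marked as partial MEX motif, which hold TCGCGCAG, are higher in replicate 2, as are most of the 264. The region with GCGCAGGG alone is not marked and had 34.2 in replicate 1 and 33.6 in replicate 2.

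Where the distal regions lay was compared with the allowed sequence. Gene 3' ends were strongly represented: 89 summits (32%, 26.8 to 37.7%) lay within 500 bp downstream of the 3' end of a protein-coding gene, against 14% of allowed bases, which would give 38.8 (exact binomial test, adjusted p = 1.4e-13 over 9 annotation classes). They sat close to the ends, with quartiles at 110, 184 and 280 bp. The share was highest between 100 and 200 bp, where 28 summits (10.1%) were found against 3.08% of bases, a ratio of 3.27, and was 3.04 times that of bases from 200 to 300 bp. From 400 to 500 bp it had fallen to 2.52% against 2.22%. The signals of these 89 regions, with a median of 77.7, were like those of the other distal regions, with a median of 77.6. The share held in each replicate's own list, at 36% in replicate 1 and 29.3% in replicate 2.

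**Figure D3:**
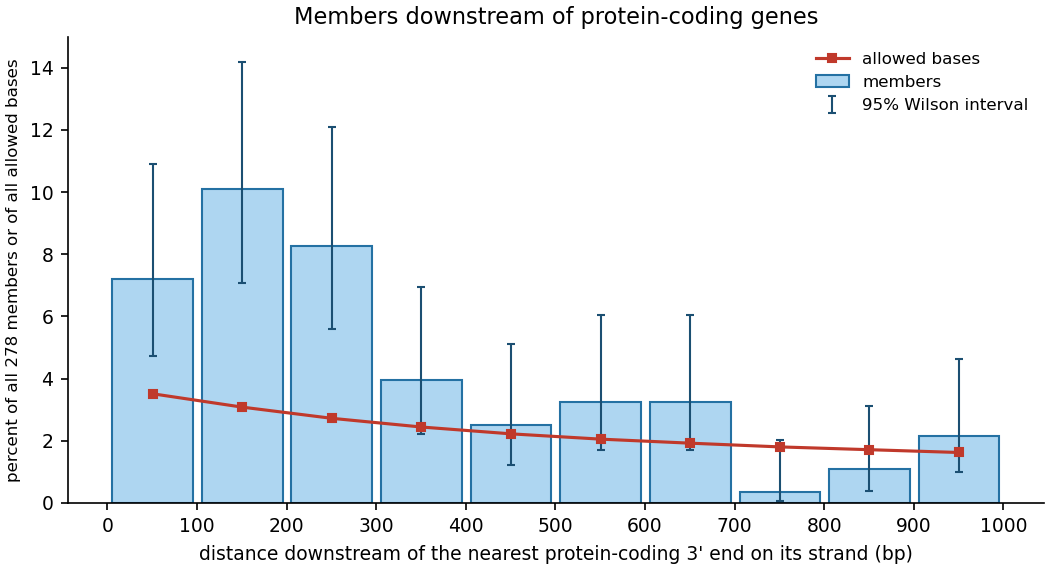
Percent of the 278 distal regions (bars, with 95% Wilson intervals) and of allowed bases (red line) by distance of the base downstream of the nearest protein-coding 3' end on its strand, in bins of 100 bp. The bars stand above the line from 1 to 300 bp and their intervals hold it in each bin from 300 to 1000 bp, where the plot ends.

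The 89 regions followed 88 different genes, named here after their values were seen. The highest carried kinds of sequence already shown: W03C9.6, K08F11.1 (shared element A), and T27A8.7 and F25E2.2 on X (partial MEX motif, 216 and 293 bp downstream, signals of 227.2 and 212.3). Shared element A also lay downstream of C46C2.7 and of zip-11, a bZIP gene, at 343 and 347 bp. Further down, some regions followed genes whose products are well known. The region 216 bp downstream of act-2, an actin gene, had a signal of 132.4 (66.2 and 62.9 in the replicates' ranked lists), and that 231 bp downstream of fat-1, an omega-3 fatty acid desaturase gene, had 122.9. The small ribosomal subunit genes rps-6 (225 bp, 117.1), rps-2 (109 bp, 98) and rps-27 (230 bp, 81.8) and ubl-1, which encodes a ribosomal protein fused to a ubiquitin-like protein (223 bp, 100), each had one. These are 4 of 79 annotated cytosolic ribosomal protein genes (5.06%), against 0.441% of all 19973 protein-coding genes. The vacuolar ATPase genes vha-16 (133 bp, 93.8) and vha-8 (53 bp, 78.5) were 2 of 20 (10%). Both families were picked after the names had been read, so the shares carry no test. Distal regions also followed cox-5A, a cytochrome c oxidase subunit gene (165 bp, 108.6), the neuropeptide gene nlp-40 (179 bp, 142.9), the germ granule gene pgl-1 (100 bp, 93.1), the mitochondrial stress regulator atfs-1 (226 bp, 64.7) and the small heat shock gene hsp-16.48 (280 bp, 50.3).

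Orientation of the neighbouring genes gave a related picture. Between convergent genes, whose 3' ends face each other, lay 83 of the 277 distal regions with a gene on both sides (30%, 24.9 to 35.6%), against 16.5% of allowed bases (exact binomial test, adjusted p = 7.7e-08 over 3 orientations). Between divergent genes lay 47 (17%) against 29.9% (exact test, adjusted p = 1.5e-06). The tandem share, 147 or 53.1%, was near its 53.6% of bases (exact test, adjusted p = 0.904). The result overlaps the one on 3' ends, since 41 of the 83 convergent regions were also within 500 bp downstream of a 3' end. In general the distal regions were not far from genes: the median summit was 2478 bp from the nearest 5' end and 1692 bp from the nearest 3' end, where the median allowed base was 2756 and 3074 bp away.

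**Figure D4:**
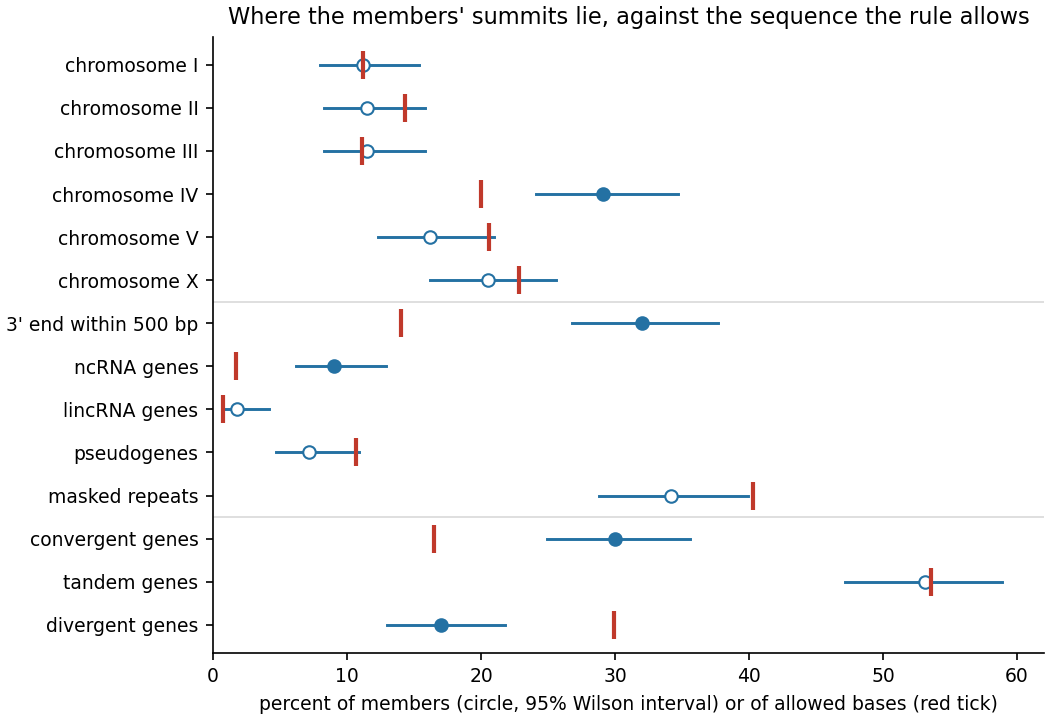
Percent of distal regions (circles, with 95% Wilson intervals) and of allowed bases (red ticks) by chromosome, annotation and orientation of neighbouring genes. Filled circles passed the exact binomial test within their family; 3' ends, non-coding RNA genes, convergent genes and IV are above their ticks, and divergent genes below.

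Genes of the class that Ensembl annotates as ncRNA, which are transcribed without a protein product and are no tRNA, snoRNA or snRNA, held 25 summits (8.99%, 6.17 to 12.9%) against 1.68% of allowed bases (exact binomial test, adjusted p = 8.3e-11). A single gene, C30E1.9, contributed 7 of these along its 14770 bp at 16929914 to 16944683 on X. Their signals were 86.1, 85.6, 75.2, 66.0, 59.9, 40.8 and 19.2, the first pair above the median of all distal regions and the last the lowest of any. Without these regions 18 of 271 (6.64%) remained. The highest in the class were in K02E11.15 on V (161), in T04C12.14, which also lies downstream of act-2 (132), in T09F3.6 on II (98) and in K11D9.8 on III (94.4). A pair of genes for the RNA of the signal recognition particle, which guides secreted proteins to the membrane, held 1 each: srpr-2.1 (93.2) and srpr-3 (83.8), and their summit windows shared sequence. As the counting takes annotated genes as given, overlapping genes both count as holding a summit, and the 25 summits fell in 23 genes.

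The other classes did not pass the test in the main list. lincRNA genes held 5 summits (1.8% against 0.739%, adjusted p = 0.116 in the exact binomial test). The highest was in linc-128 on V, with a signal of 155, and linc-129 on III held a pair, at 94.4 and 70.1. A summit each lay in the miRNA gene cel-mir-2217b-3 (signal 63.7) and in the antisense gene C02F4.12 (81.6). piRNA genes, short genes of the germline's defence against transposons that crowd parts of IV, held 0 of 278, which allows a share of up to 1.36% by the Wilson interval, against 0.517% of bases. Pseudogenes held 20 (7.19% against 10.7%, exact test, adjusted p = 0.116), with signals from 42.1 to 92.8. The lower share passed (exact test) in the conservative list, at 4.62% (adjusted p = 0.0108), with small RNA genes kept, at 5.6% (0.00241), without the dense windows on IV described below, at 5.44% (0.0188), and in the own lists, at 0% in replicate 1 (0.0161) and 2.44% in replicate 2 (0.0331). The pseudogene share did not pass above the median signal, at 5.04% (exact test, adjusted p = 0.0826). Nor did it with a promoter window of 500 bp, at 6.65% (0.118), or of 2000 bp, at 7.43% (0.17). Sequence that the assembly masks as repeats held 95 (34.2% against 40.3%, adjusted exact p = 0.113). The highest in repeats were at 15059347 on IV, 17442757 on X, 6265128 on I and 15896082 on IV.

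Among the 6 chromosomes only IV passed the test against its share of allowed bases, with 81 distal regions (29.1%, 24.1 to 34.7%) against 20% (exact binomial test, adjusted p = 0.00177). Of these, 39 lay in 5 windows of 500 kb, which start at 12000001, at 13000001 (3 in a row) and at 15000001 and were chosen because an earlier look at these data had found many peaks there. Their allowed sequence would give 8.08. Without these windows IV had 17.6% of regions and 17.6% of bases. The conservative list also lost the call (26.7%, adjusted exact p = 0.149). The 39 regions had a median signal of 77.6, the same as all distal regions to 3 digits. X held 57 (20.5% against 22.8%, adjusted exact p = 0.587), although it held 8 of the 15 highest: among the 139 highest its share was 15.8%.

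Summits were richer in G and C than their surroundings. The GC share within 50 bp of each summit was set against the mean of its flank windows, centred 500 bp away and overlapping no main region. Of the 270 regions with a flank window and no tie, 221 (81.9%) were higher at the summit (exact sign test, two-sided, p = 2.9e-27). The mean was 46.3% at summits and 36% in flanks. Single kinds of region were not set against their own flanks. The median GC share at summits was 46.5% over all distal regions and 32.2% in the heat shock element arrays. It was 37.6% for the regions in C30E1.9, 42.6% for those with TCGCGCAG and 53.5% for ncRNA genes other than C30E1.9.

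Of 15 motifs sought on both strands, 4 differed between the 278 summit windows and 525 flank windows by Fisher's exact test after adjustment over the 15. ACCACTCG was in 11 summits (3.96%) and 0 flanks (exact test, adjusted p = 1.1e-04), and the overlapping AGTGGTTA in 11 and 2 (adjusted p = 0.0021). All windows of the same length in allowed sequence held them in 0.119% and 0.181% of 243748 cases. The 860 other regions also held them above those shares, ACCACTCG in 9 (1.05%) and AGTGGTTA in 8 (0.93%). Box B, GTTCGANNC, was in 7 summits (2.52%) and 1 flank (exact test, adjusted p = 0.0119), in 15 of the 860 other regions (1.74%) and in 0.704% of allowed windows. Its call ended in the conservative list (3.08% against 0.522%, exact test, adjusted p = 0.0757), above the median signal (0.0728), with a promoter window of 2000 bp (0.99%, 0.526), in windows of 51 bp (0.228), against flanks 1000 bp away (0.0918) and in both own lists. Runs of TTTTTTTT were in 3.26% of the 860 other regions. At the 278 distal summits they were rarer than in flanks, at 4.68% against 11.8% (exact test, adjusted p = 0.00409) and 13.5% of allowed windows. That call ended in the conservative list (4.1% against 9.92%, exact test, adjusted p = 0.0723), with the 2000 bp window (0.0549), in windows of 51 bp (0.0949) and in both own lists. ACCACTCG and AGTGGTTA had been chosen from an earlier analysis of all regions of these data, so their result is not independent of it. The same 11 summits held both, and these windows share sequence with one another beyond the motifs. The test counted them as separate windows.

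The C/EBP consensus TTRCRYAA, in which R is A or G and Y is C or T, was in 6 summits (2.16%), 11 flanks (2.1%) and 2.77% of allowed windows (exact test, adjusted p = 1). Its signals ran from 73.2 to 155. The palindrome TTGCGCAA was in 1 summit and 1 flank, and the related bZIP letters TGATGCAA and TGACGCAA were in 3 and 1 summits. CACGTG, the E-box of helix-loop-helix proteins, was in 7 summits (2.52%) and 4 flanks (exact test, adjusted p = 0.138), and in 1.37% of allowed windows and 4.19% of the other regions. GAGAGAGA (5 summits), TGATAA (13), CTGTTTCA (1), an upstream motif of piRNA genes, and TTAGGCTTA (2), the telomere repeat, did not pass, with adjusted p-values from 0.256 to 0.968. TTCNNGAA was in 18 summits (6.47%) and 42 flanks (8%, adjusted exact p = 0.658), and 6.75% of allowed windows. A window with at least 3 of them was rarer: 8 summits and 5 flanks held one, as did 8 of the 860 other regions and 665 allowed windows (0.273%). That count was set after the sequences had been read and is a description.

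The MEX elements were on X alone among the distal regions. The core GCGCAGGG was in 5 summits (1.8%) and 1 flank, which missed the threshold (exact test, adjusted p = 0.0625), and in 4 of the 860 other regions (0.465%, adjusted p = 0.0879 over the 4 comparisons with them). TCGCGCAG, counted after the sequences had been read and so not tested, was in 7 distal summits, 1 flank, 4 other regions and 116 allowed windows (0.0476%, and 0.0845% of those on X). Either was in 8 summits, all on X, of 57 on that chromosome. The signals of the 7 with TCGCGCAG were 241.4, 237.8, 227.2, 212.3, 193.2, 135.5 and 78.6, and the region with GCGCAGGG alone, at 1837937 in a pseudogene, had 68.3. The first 5 stood above every region of shared element B, but the highest region of shared element A (238.6) exceeded all but the first. The array at 15059347 on IV (266.7) and the region at 11960831 on II (268.1) exceeded all 7. The regions at 78.6 and 68.3 lay near or below the median of all distal regions. The replicates' ranked lists gave 84.4 and 157 for the first, 86 and 153 for the second, 83.1 and 145 for the third, and 26.7 and 49 for the seventh. TCGCGCAG was centred within 45 bp of the summit in all 7, as the search window of 50 bp requires, and within 2 bp of it at 4209273 and 17544544.

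A search of all 8-mers without a given motif led back to the tRNA-like element. Of 878 tested, 16, or 1.82%, were more frequent at summits than in flanks (one-sided Fisher's exact test, threshold 0.05 after adjustment). Those of lowest p were ATGGCCGA (12 summits against 0 flanks, adjusted exact p = 0.00132), ACCACTCG, CATGGCCG, CCACTCGG and CCTCCAGA (11 against 0 each), CATACGCA (10 against 0, adjusted p = 0.00285), ACTCGGCC (12 against 1), AACCACTC and ATGCGGGA (11 against 1 each, adjusted p = 0.00607) and CGCATGGC (12 against 2). They overlap one another: 14 of the 16 had all but at most 2 of their summits among the 11 that hold ACCACTCG. The exceptions were CCTCCAGA, with 6 of 11 there, and CGAGAAAA (13 against 4, adjusted exact p = 0.0251), with none. The 11 regions were spread over all 6 chromosomes, with signals from 67.9 to 104.8. Of these, 1 was in replicate 1's own thresholded list, 3 in replicate 2's and none in both, while the conservative list held 8. The count of 16 8-mers fell to 1 in the conservative list and to 0 above the median signal, while ACCACTCG kept its call in both, at 4.1% (exact test, adjusted p = 0.00229) and 5.04% (0.00374) against 0% of flanks. In the own lists, with 50 and 82 members, it was at 2% in replicate 1 and 3.66% in replicate 2, against 0% of flanks, and these smaller sets gave no call.

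Many distal summits were not unique in the genome. The window around 91 of 278 summits (32.7%, 27.5 to 38.5%) aligned elsewhere at 90% identity over at least 80 bp, against 92 of the 860 other regions (10.7%, 8.8 to 12.9%). These shares are descriptions. The other regions lie at promoters and within genes, and no such share was taken for allowed sequence. Whether copies are commoner at distal summits than in intergenic sequence at large is therefore not shown. Masked repeats held 34.2% of distal summits and 40.3% of allowed bases. All 8 heat shock element arrays and all 11 regions with ACCACTCG had such a copy, while 1 of the 7 with TCGCGCAG and 1 of the 6 with TTRCRYAA had one, and 12 of the 89 downstream of 3' ends. Of the 91, 46 were in masked repeats and 27 had at least 100 copies. How the authors' aligner placed reads that match several places is not stated in the sources at hand, and its part in these peaks was not tested. When the windows were compared with each other at 75% identity over at least 50 bp, 57 fell into 11 groups, 6 of them with at least 3 regions. The biggest held 21 regions on I, II, IV, V and X and included all 8 arrays of heat shock elements. The next was made up of the 11 regions with ACCACTCG. Shared element A had 5 regions, on II and IV, with signals of 238.6, 159.5, 149.8, 146.6 and 102.7, each in at least 1 replicate's own list. Shared element B had 3, all on V, with 161.5, 145.5 and 100.9, and all 3 were in replicate 2's own list.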

How the data were processed

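Peaks were analysed from 2 biological replicates of 1 group. Each replicate's reads were aligned to ce11 on their own, per the file headers, and the authors ranked and thresholded peaks by the irreproducible discovery rate, a measure of how well ranks repeat. Aligner, peak caller and parameters were not given in the sources used here. Each deposited peak carries a signal value whose normalization is not stated, which ranked peaks within a list; depth is unknown. Peaks sharing 1 bp were merged, the summit being that of the highest peak. Genes came from Ensembl release 115, sequence and repeat masking from the RefSeq assembly of the same build. Two-sided exact binomial and Fisher's exact tests (scipy 1.17.1) were adjusted by Benjamini-Hochberg within each family, at a threshold of 0.05. Motifs were sought in 101 bp around each summit and in 2 flank windows of that size centred 500 bp away that overlap no main region. 8-mers in at least 10 windows were tested one-sided, after a test on simulated data. The simulated summits and flanks had the same base composition and no longer copied sequence, unlike the real windows, so that test does not cover these features. Copies were sought with blastn 2.17.0. The members, motifs and windows were chosen with earlier results of these data known. Named were the 15 highest members, the highest of each chromosome, the nearest to cebp-2, up to 4 of each annotation class, up to 8 with the MEX core, those at the rule's bound and the 10 8-mers of lowest p; others were named after their values were seen. Alternatives changed the list, the replicate, merging, promoter window, small RNA genes, dense windows, motif window and flank distance.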

Additional observations from a re-analysis of the deposited data

How the results depend on the processing

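No paired analysis was possible because there is 1 group. Of 220 recomputed values, 151 kept their direction and side of the threshold (or, for counts, stayed within 1.5 times), 18 lost the call, 19 gained one, 15 turned and 17 counts or shares moved. The shares at 3' ends, in ncRNA genes, between convergent genes and in GC kept both under every alternative run for them. The number of members was 139 above the median signal and 50 to 82 in the replicates' own lists. IV fell to 26.7% in the conservative list and was 30% to 34.1% in the own lists, where replicate 1's (30%) lost the call; without the dense windows it was 17.6%, against 17.6% of bases. X turned above its share of bases with a 2000 bp promoter window (23.8%), without the dense windows (23.8%) and with tRNA, snoRNA and snRNA genes kept (28.9%, past the threshold). Repeats passed, lower, with a 500 bp window (32.6%), with those genes kept (28.9%) and without the dense windows (32.2%). Above the median signal, 18% of members were in both own lists and 91.4% in the conservative list, no longer above the others (18% and 92.1%); the conservative share was 84% to 86.6% in the own lists, below the others (86.9%) in replicate 1's, and passed with a 500 bp window (64.7%) and with small RNA genes kept (68.6%). The share above the median signal passed in the conservative list, whose own median was used because its scale may differ (52.8%, a choice made after seeing the data), with a 500 bp window (50.8%) and with small RNA genes kept (57.4%). MEX core against other regions passed with a 500 bp window (2.11%) and the longest motif windows, reaching 100 bp to either side (2.52%). Motifs past the threshold numbered 2 in the conservative list, with a 2000 bp window and in windows of 51 bp, and 0 in each own list. GCGCAGGG passed against flanks with a 500 bp window, with small RNA genes kept, in the longest windows and against flanks 1000 bp away, while box B lost its call in the conservative and own lists, above the median signal, with a 2000 bp window, in 51 bp and against flanks 1000 bp away, and TTTTTTTT in the conservative and own lists, with a 2000 bp window and in 51 bp. 8-mers numbered 1 in the conservative list, 0 above the median signal and in each own list, 0 in windows of 51 bp, 36 in the longest windows and 42 with small RNA genes kept. TTCNNGAA turned above flanks in the conservative list (8.21%), in the own lists (6.1% to 12%) and in 51 bp (5.4%). TTRCRYAA turned below with a 500 bp window (2.42%), with small RNA genes kept (2.24%), in the longest windows (2.88%) and against flanks 1000 bp away (2.16%). Copies rose to 48.2% at 80% identity over 50 bp. The causes were not tested. With 2 replicates and no read counts, no spread between animals could be measured for any share.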
